A study of Homo sapiens with 6 samples.

Results

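The sestrin, folliculin complex and Rag-Ragulator genes are 10 genes of amino acid sensing at the lysosome: SESN1, SESN2, SESN3, FLCN, FNIP1, FNIP2, RRAGC, RRAGD, LAMTOR1 and LAMTOR4. They were measured in PC3, an established cell line from a human prostate cancer. The genes were selected on their differences between the siRNA groups in an earlier look at these same arrays, so those differences are described here and not tested as evidence. Every probe set whose platform annotation names only 1 of these genes was taken, which gave 29 of the 41091 probe sets with a single gene and covered 9 of the 10 genes. LAMTOR1 had no such probe set and is not analysed further. One more probe set names FLCN together with PLD6 and was left out by the same rule. A low-value filter, which asked that the 6 arrays average log2 4 or more, kept 18 of the 29 probe sets and at least 1 for each of the 9 genes.

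The study used 6 Affymetrix HG-U133 Plus 2.0 arrays, 2 for each siRNA group, hybridised with total RNA collected 72 h after transfection. The groups were cells given an siRNA pool against NRP-2, cells given an siRNA pool against VEGF-C, and cells given a scrambled siRNA. VEGF-C is a growth factor of lymphatic vessels and neuropilin-2 is one of its co-receptors. All groups were PC3 cells grown in RPMI medium with serum, and a single pool was used for each target, from a different supplier for each, so target and pool cannot be told apart. In such bulk RNA, fewer cells of a kind and less RNA per cell cannot be told apart. The labels do not say that the arrays of a group came from separate cultures, so the errors given here measure the spread between these arrays, which may be technical.

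Growth in a cell is coupled to its supply of amino acids at the surface of the lysosome, where a heterodimer of Rag GTPases recruits the kinase complex mTORC1. RRAGC and RRAGD encode the alternative partners of RagA and RagB in this heterodimer, and LAMTOR1 and LAMTOR4 encode subunits of the Ragulator complex that anchors it to the membrane. Folliculin, encoded by FLCN, works with FNIP1 or FNIP2 as a GTPase activating complex for RagC and RagD. Sestrins hold mTORC1 back when amino acids are short by binding GATOR2. SESN2 is a known target of the stress factor ATF4, SESN3 of FOXO factors, and the Rag and folliculin genes of the MiT/TFE factors TFEB, TFE3 and MITF.

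To show the sequence in front of these genes, the 250 bases upstream of the annotated gene start were read from RefSeq promoter windows (GRCh38.p14), which held 12 windows for 9 of the 10 members, with RRAGD not among them. The hexamer CACGTG, the core bound by MiT/TFE and other basic helix-loop-helix factors, reads the same on both strands. It lay in this stretch in 4 of the 9 genes, RRAGC, FNIP1, LAMTOR4 and LAMTOR1. Of all 35116 windows of the same length, 6.34% held it. That is a share of windows and not of genes, and a gene with several windows has more chances to hold it. Below are 3 measured members that hold it, and SESN2, which does not, for comparison. Capitals mark the hexamer, each run is 5′ to 3′ on the strand of the gene, and its last base is the one before the gene start.
RRAGC (chr1:38859773-38860022, minus strand): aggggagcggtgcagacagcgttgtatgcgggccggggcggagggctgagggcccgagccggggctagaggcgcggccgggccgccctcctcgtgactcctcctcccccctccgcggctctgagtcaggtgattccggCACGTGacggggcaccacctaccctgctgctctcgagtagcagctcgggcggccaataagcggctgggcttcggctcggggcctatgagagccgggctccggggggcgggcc
FNIP1 (chr5:131797018-131797267, minus strand): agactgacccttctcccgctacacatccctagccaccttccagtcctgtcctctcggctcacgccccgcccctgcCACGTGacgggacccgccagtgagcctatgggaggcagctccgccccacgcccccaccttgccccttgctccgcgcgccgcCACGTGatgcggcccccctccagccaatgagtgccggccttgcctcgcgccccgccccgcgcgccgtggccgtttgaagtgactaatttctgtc
LAMTOR4 (chr7:100148668-100148917, plus strand): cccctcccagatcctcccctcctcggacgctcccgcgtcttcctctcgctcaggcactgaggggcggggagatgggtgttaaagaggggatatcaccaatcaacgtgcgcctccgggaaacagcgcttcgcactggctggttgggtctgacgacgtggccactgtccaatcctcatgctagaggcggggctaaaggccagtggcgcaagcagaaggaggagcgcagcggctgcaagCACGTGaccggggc
SESN2 (chr1:28259268-28259517, plus strand): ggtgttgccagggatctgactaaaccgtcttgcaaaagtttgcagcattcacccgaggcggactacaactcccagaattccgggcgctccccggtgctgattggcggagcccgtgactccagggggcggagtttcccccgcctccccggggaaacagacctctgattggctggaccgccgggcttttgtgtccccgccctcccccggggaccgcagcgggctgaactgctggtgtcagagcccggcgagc
The hexamer began 112 bases before the start of RRAGC, 175 and 94 bases before that of FNIP1 and 14 bases before that of LAMTOR4. A C/EBP-ATF element written as TGATGNAA and a FOXO element written as GTAAACA were searched on both strands in the same stretch. Neither set of letters occurred in any member window, against 3.14% and 2.98% of all windows. These are matches of letters and not evidence of binding, and which gene start PC3 cells use was not measured.

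Values are the log2 signals per probe set that the authors deposited, and a level of 1 probe set is not comparable with that of another. Unless stated otherwise, a gene is read through its brightest probe set, and a difference is one of group means in log2 units with the standard error (SE) of a limma fit to all 11131 genes past the filter. limma called 0 of the 11131 genes at an adjusted p under 0.05 in each of the 3 comparisons, 0% of those tested, and the members' lowest adjusted p was 0.213 for NRP-2 against scrambled siRNA, 0.238 for VEGF-C against scrambled siRNA and 0.114 for NRP-2 against VEGF-C siRNA. At an unadjusted p under 0.05 the fit had 1478, 1642 and 2026 genes in the same order.

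As a check of the labels, the targeted transcripts were read first. NRP2 stood at log2 3.41 and 2.81 on the NRP-2 siRNA arrays, 5.51 and 6.01 on the VEGF-C siRNA arrays and 4.77 and 4.92 on the scrambled arrays, so both NRP-2 siRNA arrays were below all others. VEGFC stood at 11.99 and 11.67 on the NRP-2 siRNA arrays, 8.46 and 7.27 on the VEGF-C siRNA arrays and 11.81 and 11.80 on the scrambled arrays. The epithelial markers KRT8, KRT18, KRT19, EPCAM and CDH1 all passed the filter, as did the mesenchymal filament gene VIM, which was listed with them for this line, and their lowest value on any array was 11.74. Of the markers of other cells, 0 of 5 for leukocytes, 1 of 5 for fibroblasts (COL3A1) and 2 of 5 for endothelium (PECAM1 and KDR) passed, with COL1A2, DCN, CDH5 and VWF at or under 3.11 on every array. PECAM1 ran from 9.17 to 10.93 over the arrays. The array medians lay within 0.07 of each other. The arrays did differ in cell cycle genes: the mean of 29 G2 and mitosis genes was 10.98 and 9.95 on the NRP-2 siRNA arrays, 11.16 and 10.42 on the VEGF-C siRNA arrays and 10.29 and 8.61 on the scrambled arrays. The part of this difference in the results below was not tested beyond a fit that carried the mean of these genes as a covariate. Values of that fit are given for SESN1, SESN2, FNIP2 and counts of members, and not for the other members.

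**Figure D1:**
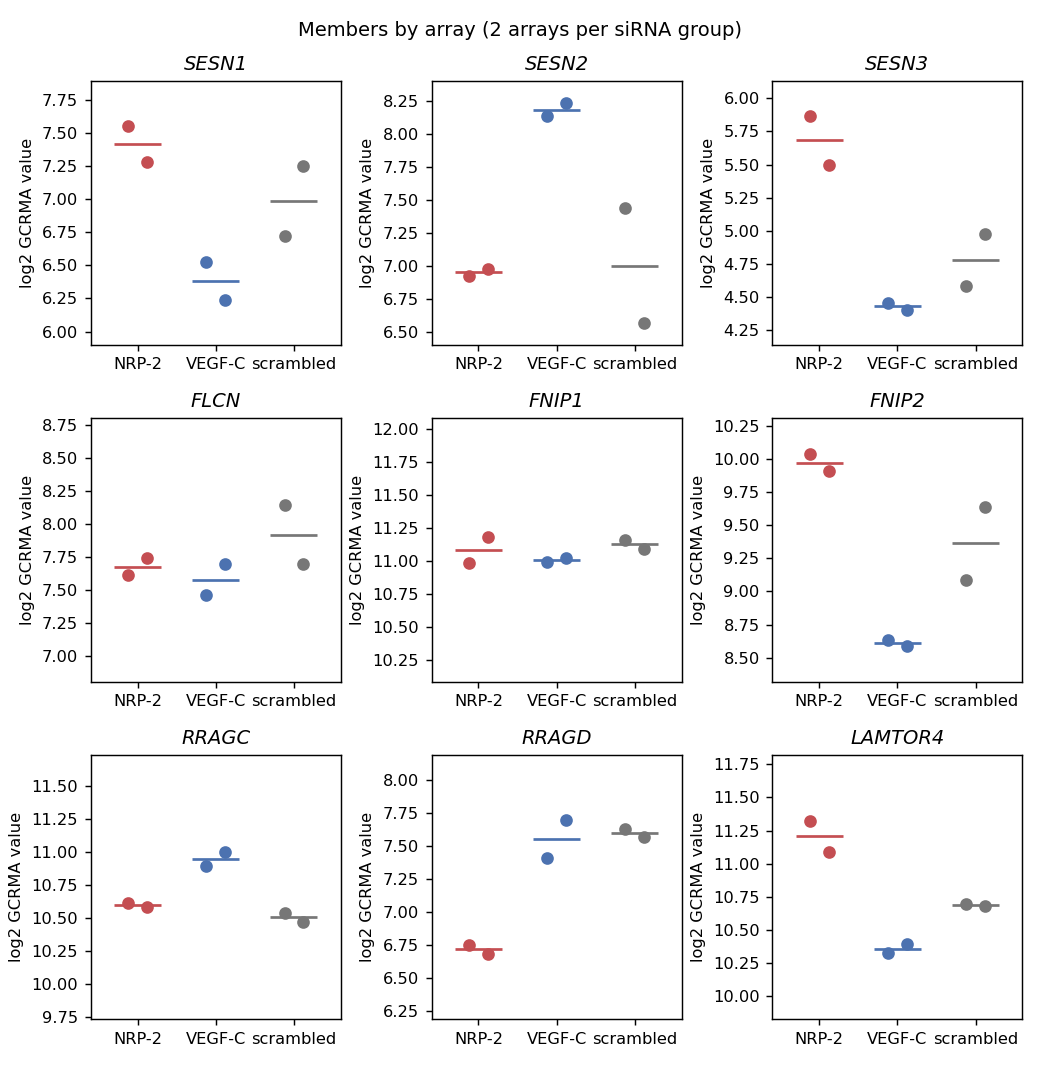
Deposited log2 value of each measured member on each of the 6 arrays, 1 panel per gene on vertical axes of equal span, with a line at the mean of the 2 arrays of a group. SESN1, SESN3, FNIP2 and LAMTOR4 have their highest points with NRP-2 siRNA and their lowest with VEGF-C siRNA, SESN2 and RRAGC have their highest with VEGF-C siRNA, and RRAGD has its lowest with NRP-2 siRNA.

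The sestrins did not move as a family: SESN2 was high with VEGF-C siRNA, while SESN1 and SESN3 were low there and high with NRP-2 siRNA. SESN2, the sestrin best known as a leucine sensor and stress-induced gene, had 6.93 and 6.98 on the NRP-2 siRNA arrays, 8.13 and 8.23 on the VEGF-C siRNA arrays and 7.44 and 6.57 on the scrambled arrays. Both VEGF-C arrays were above all 4 others, and the scrambled arrays enclosed the NRP-2 arrays. The difference was +1.18 (SE 0.29) for VEGF-C against scrambled siRNA, or 2.27-fold. It was -0.05 (SE 0.29) for NRP-2 against scrambled siRNA and -1.23 (SE 0.29) for NRP-2 against VEGF-C siRNA. The scrambled arrays differed most between themselves: the SD was 0.04 with NRP-2 siRNA, 0.07 with VEGF-C siRNA and 0.61 with scrambled siRNA. The difference for VEGF-C against scrambled siRNA was +0.75 without scrambled array 2 and +1.61 without scrambled array 1. In the fit with the covariate of G2 and mitosis genes it was +0.78. NRP-2 minus scrambled siRNA changed sign with which scrambled array was left out, at -0.48 without scrambled array 2 and +0.38 without scrambled array 1, and was -0.36 in the fit with the covariate. The dimmer SESN2 probe set read 5.97 and 6.06 on the NRP-2 siRNA arrays, 7.21 and 7.01 on the VEGF-C siRNA arrays and 6.16 and 5.66 on the scrambled arrays. Both VEGF-C arrays again stood above the others, with +1.2 (SE 0.20) for VEGF-C against scrambled siRNA.

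SESN1, a sestrin known as a target of p53, had 7.56 and 7.28 on the NRP-2 siRNA arrays, 6.52 and 6.24 on the VEGF-C siRNA arrays and 6.72 and 7.25 on the scrambled arrays. No groups overlapped, with NRP-2 arrays on top and VEGF-C arrays at the bottom, but the gap between the lower NRP-2 array and the higher scrambled array was small. NRP-2 minus VEGF-C siRNA came to +1.04 (SE 0.23), 2.05-fold, while NRP-2 minus scrambled siRNA was +0.43 (SE 0.23) and VEGF-C minus scrambled siRNA -0.61 (SE 0.23). The NRP-2 difference from scrambled siRNA ran from +0.17 without scrambled array 1 to +0.70 without scrambled array 2, and that of VEGF-C siRNA from -0.87 to -0.34 without the same arrays. In the fit with the covariate of G2 and mitosis genes these differences were +0.53 and -0.48.

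SESN3, the sestrin linked to FOXO factors, was measured by 7 probe sets, of which 1 passed the filter. That probe set read 5.87 and 5.50 on the NRP-2 siRNA arrays, 4.46 and 4.40 on the VEGF-C siRNA arrays and 4.58 and 4.97 on the scrambled arrays, close to the low end of the scale, where GCRMA compresses differences. The order of the groups was that of SESN1, again without overlap. NRP-2 siRNA was +1.25 (SE 0.20) or 2.39-fold above VEGF-C siRNA and +0.91 (SE 0.20) above scrambled siRNA, and VEGF-C siRNA differed from scrambled siRNA by -0.35 (SE 0.20). The other 6 probe sets stayed under the filter, the highest single value being 3.5 on scrambled array 1. For VEGF-C against scrambled siRNA the difference was -0.15 without scrambled array 2 and -0.54 without scrambled array 1.

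In the folliculin complex FNIP2 differed most between the groups, and FLCN and FNIP1 differed by 0.34 or less in any comparison. FNIP2, one of the exchangeable partners of folliculin, had 10.04 and 9.91 on the NRP-2 siRNA arrays, 8.63 and 8.59 on the VEGF-C siRNA arrays and 9.09 and 9.64 on the scrambled arrays. The 3 groups did not overlap. NRP-2 siRNA was 2.58-fold above VEGF-C siRNA (+1.37, SE 0.20), the widest range of group means among the members, with +0.61 (SE 0.20) for NRP-2 and -0.76 (SE 0.20) for VEGF-C siRNA against scrambled siRNA. Without scrambled array 1 these came to +0.34 and -1.03, and without scrambled array 2 to +0.89 and -0.48. In the fit with the covariate of G2 and mitosis genes they were +0.79 and -0.525. The other FNIP2 probe sets past the filter gave +1.25 (SE 0.22) and +1.21 (SE 0.14) for NRP-2 minus VEGF-C siRNA, and 1 more, with a mean under log2 4, ran from 2.38 to 2.43. All 3 probe sets past the filter share the RNA of 1 gene and are not replicates.

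FNIP1, the other partner, had 10.99 and 11.18 on the NRP-2 siRNA arrays, 10.99 and 11.02 on the VEGF-C siRNA arrays and 11.16 and 11.09 on the scrambled arrays. Its groups overlapped except for a small gap between VEGF-C and scrambled arrays, and NRP-2 minus VEGF-C siRNA was +0.08 (SE 0.13). The 4 FNIP1 probe sets past the filter differed by -0.13 to +0.08 in that comparison. FLCN, the folliculin gene itself, had 7.61 and 7.74 on the NRP-2 siRNA arrays, 7.46 and 7.69 on the VEGF-C siRNA arrays and 8.14 and 7.70 on the scrambled arrays. Scrambled array 1 stood above the rest, and the differences from scrambled siRNA, -0.24 (SE 0.19) for NRP-2 and -0.34 (SE 0.19) for VEGF-C siRNA, shrank to -0.02 and -0.12 without it. FLCN was measured by 4 probe sets, and the second one past the filter gave -0.03 (SE 0.14) for NRP-2 minus VEGF-C siRNA. The probe set that names FLCN together with PLD6 read 8.60 and 8.44 on the NRP-2 siRNA arrays. It read 8.80 and 8.81 on the VEGF-C siRNA arrays and 8.395 and 8.29 on the scrambled arrays. VEGF-C siRNA was thus above scrambled siRNA there, opposite to the FLCN set above, and which gene it reads was not tested.

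The paralogs RRAGC and RRAGD, which take the same place in the Rag heterodimer, differed in which siRNA group stood apart. RRAGD had 6.75 and 6.68 on the NRP-2 siRNA arrays, 7.41 and 7.70 on the VEGF-C siRNA arrays and 7.63 and 7.57 on the scrambled arrays. Both NRP-2 arrays were below all 4 others, and the VEGF-C arrays enclosed the scrambled ones. NRP-2 siRNA differed from scrambled siRNA by -0.88 (SE 0.14), 1.84-fold lower, and from VEGF-C siRNA by -0.83 (SE 0.14), while VEGF-C minus scrambled siRNA was -0.05 (SE 0.14). Leaving out any array kept NRP-2 minus scrambled siRNA between -0.92 and -0.85. A dimmer RRAGD probe set, at 4.40 and 5.0 on the NRP-2 siRNA arrays, 5.97 and 5.68 on the VEGF-C siRNA arrays and 5.68 and 6.23 on the scrambled arrays, gave -1.26 (SE 0.28) against scrambled siRNA for NRP-2 siRNA.

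RRAGC had 10.62 and 10.59 on the NRP-2 siRNA arrays, 10.899 and 11.003 on the VEGF-C siRNA arrays and 10.54 and 10.47 on the scrambled arrays. Here the VEGF-C arrays were above all others, by +0.44 (SE 0.12) or 1.36-fold over scrambled siRNA, and NRP-2 siRNA lay +0.10 (SE 0.12) from scrambled siRNA. The second bright probe set gave +0.18 (SE 0.13) for NRP-2 and +0.50 (SE 0.13) for VEGF-C against scrambled siRNA, and 1 more read 2.48 to 2.62 on all arrays. NRP-2 minus VEGF-C siRNA was -0.35 (SE 0.12) in RRAGC, the same direction as in RRAGD.

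LAMTOR4, a small Ragulator subunit, was read by 1 probe set at 11.32 and 11.09 on the NRP-2 siRNA arrays, 10.32 and 10.39 on the VEGF-C siRNA arrays and 10.69 and 10.68 on the scrambled arrays. The groups were separate, with scrambled arrays between the others and an SD of 0.01 among the scrambled arrays. NRP-2 siRNA was +0.52 (SE 0.13) above scrambled siRNA, 1.44-fold, VEGF-C siRNA differed from it by -0.33 (SE 0.13), and NRP-2 siRNA was 1.80-fold above VEGF-C siRNA (+0.85, SE 0.13). Unlike SESN2 and FNIP2, this gene differed little between its scrambled arrays, and leaving out any array kept NRP-2 minus VEGF-C siRNA between +0.73 and +0.97.

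**Figure D2:**
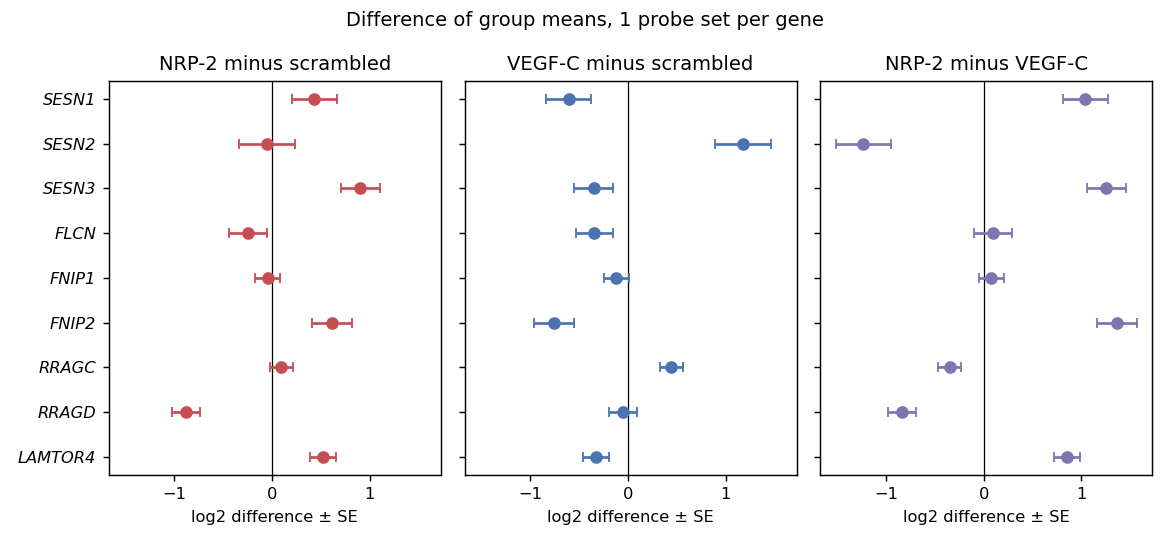
Log2 difference of group means with its SE (bars) for the 9 measured members, 1 panel per comparison with the named group minus the other. Points lie on both sides of 0 in every panel, and the widest are FNIP2 at +1.37, SESN3 at +1.25 and SESN2 at -1.23 for NRP-2 minus VEGF-C siRNA.

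The comparisons with scrambled siRNA share the 2 scrambled arrays and are not independent of each other. Compared directly, 4 of the 9 members were higher with NRP-2 than with VEGF-C siRNA without overlap of the groups (SESN1, SESN3, FNIP2 and LAMTOR4), where 24.1% of all genes were, and 3 were lower (SESN2, RRAGC and RRAGD), where 22.4% were. These same 7 genes had an unadjusted p under 0.05 in limma (18.2% of all genes in either direction), and 0 of 9 passed after adjustment. The median absolute difference was 0.85 over the 9 members and 0.22 over all genes, and the signed medians were +0.10 and +0.02. The members were selected on differences between these groups, so their larger counts and median absolute difference here are no evidence about them.

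Against scrambled siRNA, 5 members were higher with NRP-2 siRNA without overlap (25.3% of all genes) and 1 was lower (24.4%). With VEGF-C siRNA 2 members were higher without overlap (26.8%) and 6 were lower (26.6%). An unadjusted p under 0.05 was reached by 4 members in each comparison, SESN3, FNIP2, LAMTOR4 and RRAGD with NRP-2 siRNA (13.3% of all genes) and SESN1, SESN2, FNIP2 and RRAGC with VEGF-C siRNA (14.8%). In the fit with the covariate of G2 and mitosis genes the count with VEGF-C siRNA was 0 of 9, where 7.37% of all genes had such a p, and without VEGF-C array 2 it was 2, where 11.1% had one. SESN1 lost its place in the count with VEGF-C siRNA when same-numbered arrays were taken as a block, at an unadjusted limma p of 0.0532 against 0.0421 without the block. The median difference of the members was +0.10 with NRP-2 siRNA (+0.01 over all genes) and -0.33 with VEGF-C siRNA (-0.004 over all genes).

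In FNIP2, SESN2, RRAGC and RRAGD, each with more than 1 probe set past the filter, all of these sets had the same direction between NRP-2 and VEGF-C siRNA. Of the 18 member probe sets, 6 were higher with NRP-2 than with VEGF-C siRNA without overlap (23% of all 19946 probe sets) and 7 were lower (24.5%). The 7 were both SESN2, both RRAGC and both RRAGD sets and 1 of the 4 FNIP1 sets.

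**Figure D3:**
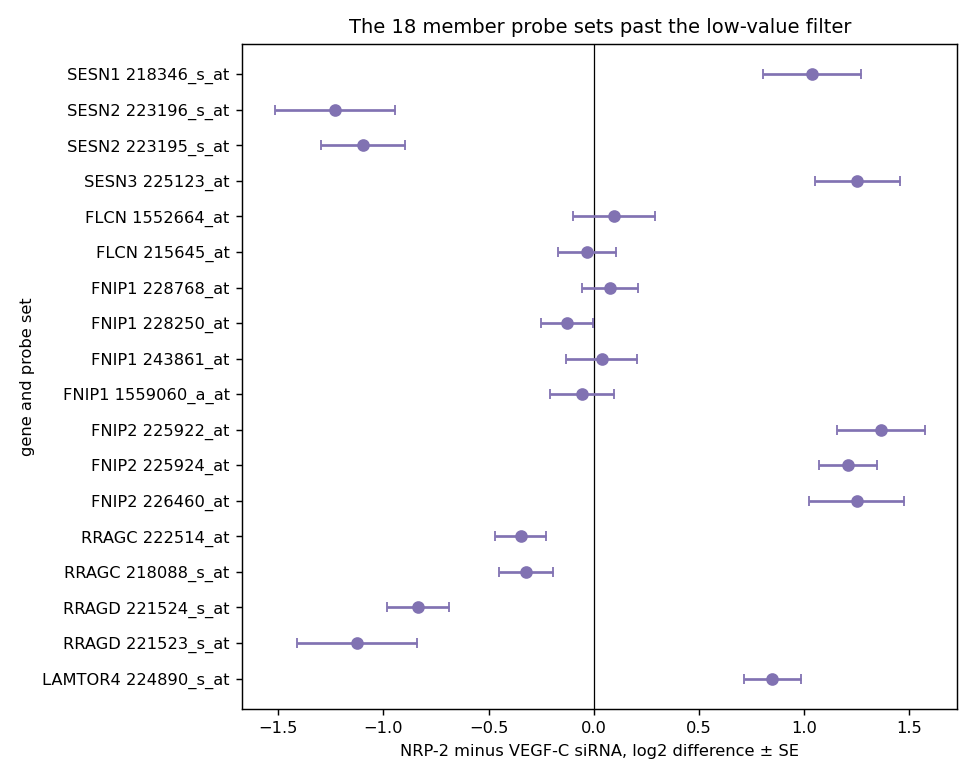
Log2 difference of NRP-2 minus VEGF-C siRNA with its SE (bars) for the 18 member probe sets past the filter, ordered by gene. The 3 FNIP2 sets lie between +1.21 and +1.37, the 2 SESN2 sets at -1.23 and -1.1, and the 6 FLCN and FNIP1 sets between -0.13 and +0.10.

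The rest of the pathway was read from lists of its other genes, of which 27 of 29 were measured. At an unadjusted p under 0.05, 2 were higher and 2 lower with NRP-2 siRNA against scrambled siRNA (6.43% and 6.85% of all genes), 1 was higher and 3 lower with VEGF-C siRNA (6.95% and 7.8%), and 4 were higher and 1 lower with NRP-2 against VEGF-C siRNA (9.54% and 8.66%), with 0 called after adjustment. The median difference was +0.11, -0.02 and +0.06 in the same order, beside +0.01, -0.004 and +0.02 over all genes.

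Among the other Rag and Ragulator genes, RRAGB was low with both targeting siRNAs. RRAGB, a partner of RagC and RagD, had 7.84 and 8.31 on the NRP-2 siRNA arrays, 8.22 and 8.32 on the VEGF-C siRNA arrays and 8.73 and 9.04 on the scrambled arrays. It differed from scrambled siRNA by -0.81 (SE 0.21) with NRP-2 and -0.62 (SE 0.21) with VEGF-C siRNA, and both sets of arrays lay below the scrambled ones. RRAGA, its close paralog, stayed between 11.57 and 11.78 on all arrays. LAMTOR3, a Ragulator subunit, was at +0.52 (SE 0.16) with NRP-2 and +0.39 (SE 0.16) with VEGF-C siRNA, and LAMTOR2 at +0.23 (SE 0.19) with each.

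GATOR1, the GTPase activating complex that switches RagA and RagB off, and KICSTOR, which holds it on the lysosome, had 6 of 7 genes measured. Against scrambled siRNA, limma had 1 of them higher at an unadjusted p under 0.05 with NRP-2 siRNA (6.43% of all genes). With VEGF-C siRNA it had 0 (14.8% in either direction). DEPDC5, the large GATOR1 subunit, was at +0.31 (SE 0.12) with NRP-2 and +0.02 (SE 0.12) with VEGF-C siRNA. It read 4.34 to 4.72 over the arrays, close to the low end of the scale. NPRL3, another subunit, was at -0.40 (SE 0.22) and +0.29 (SE 0.22), KICS2 of KICSTOR at -0.58 (SE 0.27) and -0.07 (SE 0.27), and ITFG2 at -0.34 (SE 0.15) and -0.08 (SE 0.15). ITFG2 read 3.70 to 4.27 over the arrays, also close to that end. GATOR2, the complex that sestrins bind, had all 5 genes measured. None had an unadjusted limma p under 0.05 against scrambled siRNA, beside 13.3% of all genes with NRP-2 and 14.8% with VEGF-C siRNA. SEC13 was at +0.32 (SE 0.16) with NRP-2 and -0.12 (SE 0.16) with VEGF-C siRNA, SEH1L at +0.26 (SE 0.16) and +0.05 (SE 0.16), and WDR24 at +0.16 (SE 0.13) and +0.03 (SE 0.13).

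The other amino acid sensors held 11 measured genes of 12. CASTOR1, the arginine sensor that binds GATOR2, had 5.63 and 5.62 on the NRP-2 siRNA arrays, 5.72 and 5.76 on the VEGF-C siRNA arrays and 5.99 and 6.22 on the scrambled arrays. All 4 targeting arrays lay below the scrambled ones, with differences of -0.48 (SE 0.13) for NRP-2 and -0.36 (SE 0.13) for VEGF-C siRNA. CASTOR2, its homolog, was at -0.33 (SE 0.32) with NRP-2 and -0.98 (SE 0.32) with VEGF-C siRNA, and read 3.93 to 5.50 over the arrays. BMT2, which encodes the S-adenosylmethionine sensor SAMTOR, had 10.37 and 10.06 on the NRP-2 siRNA arrays, 9.51 and 8.81 on the VEGF-C siRNA arrays and 9.53 and 9.64 on the scrambled arrays. The NRP-2 arrays were highest, as in SESN1, SESN3, FNIP2 and LAMTOR4, and VEGF-C array 1 was just under the scrambled arrays. WDR41, a partner of the folliculin-like C9orf72 and SMCR8, was at +0.18 (SE 0.20) with NRP-2 and +0.58 (SE 0.20) with VEGF-C siRNA.

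**Figure D4:**
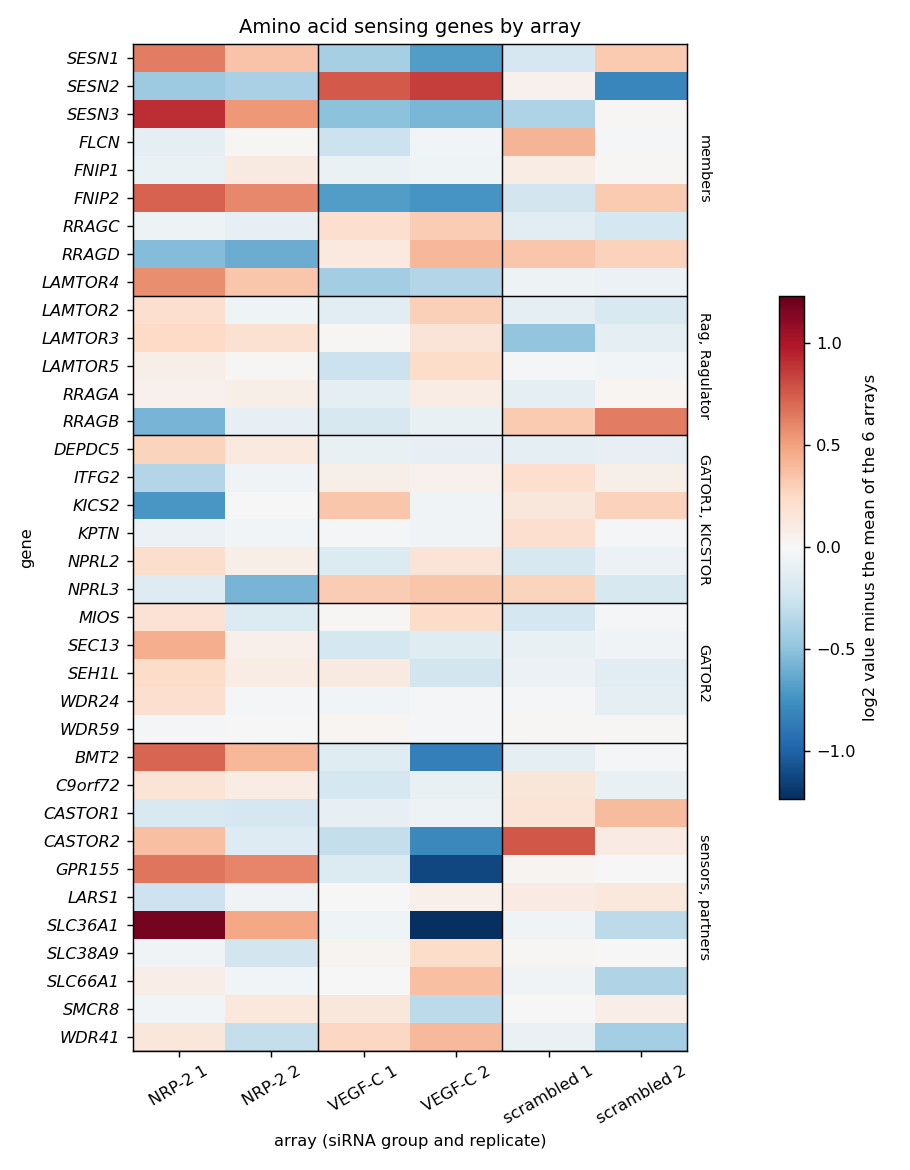
Deposited log2 value minus the mean of the 6 arrays (colour) for the 9 measured members and the 27 other measured pathway genes, on NRP-2, VEGF-C and scrambled arrays from left to right. RRAGB and CASTOR1 are highest in the scrambled columns, and FNIP2, SESN3 and BMT2 are highest in the NRP-2 columns.

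Factors known to act on these genes were read at the RNA level, which does not show their activity. Of 9 listed, 7 were measured, and 0 had an unadjusted p under 0.05 against scrambled siRNA (13.3% of all genes with NRP-2 and 14.8% with VEGF-C siRNA). TFE3 was at +0.01 (SE 0.23) with NRP-2 and +0.51 (SE 0.23) with VEGF-C siRNA, MITF at -0.05 and +0.11 (SE 0.15), ATF4 at -0.16 and +0.25 (SE 0.15) and FOXO4 at -0.03 and -0.20 (SE 0.15).

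SESN2 was set beside 13 other ATF4 targets, of which 11 lay below 0 with NRP-2 and 12 above 0 with VEGF-C siRNA against scrambled siRNA. Their median was -0.28 with NRP-2 siRNA (+0.01 over all genes) and +0.33 with VEGF-C siRNA (-0.004 over all genes). At an unadjusted p under 0.05, limma had 0 of them with NRP-2 siRNA (13.3% of all genes in either direction). With VEGF-C siRNA it had 1 higher, CHAC1 (6.95% of all genes). Between NRP-2 and VEGF-C siRNA 6 of the 13 were lower at that threshold (8.66% of all genes) and 0 higher (9.54%). The median there was -0.77 (+0.02 over all genes). The mean of the 13 was 10.66 and 11.06 on the NRP-2 siRNA arrays, 11.52 and 11.52 on the VEGF-C siRNA arrays and 11.21 and 11.12 on the scrambled arrays. SESN2 was likewise highest on the VEGF-C arrays, and its NRP-2 difference from scrambled siRNA had no settled direction, as given above. CHAC1, which degrades glutathione, was at -0.28 (SE 0.17) with NRP-2 and +0.51 (SE 0.17) with VEGF-C siRNA, and DDIT3, a pro-apoptotic factor, at -0.62 (SE 0.28) and +0.62 (SE 0.28). ATF3 was at +0.30 (SE 0.44) and +1.08 (SE 0.44), and CEBPB at -0.12 (SE 0.13) and +0.33 (SE 0.13).

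The Rag and folliculin genes were likewise set beside other targets of TFEB and TFE3, with 10 of 15 measured. Their medians were -0.16 with NRP-2 and -0.05 with VEGF-C siRNA against scrambled siRNA. With NRP-2 siRNA 1 was higher and 1 lower at an unadjusted limma p under 0.05 (6.43% and 6.85% of all genes). With VEGF-C siRNA 0 had such a p (14.8% in either direction). GLA, a lysosomal galactosidase, was at +0.96 (SE 0.35) with NRP-2 and +0.53 (SE 0.35) with VEGF-C siRNA, and CTSD, a lysosomal protease, at -0.42 (SE 0.15) and -0.25 (SE 0.15). SQSTM1, an autophagy receptor, was at -0.20 (SE 0.13) and +0.26 (SE 0.13), and ATP6V1H, a subunit of the proton pump, at -0.29 (SE 0.14) and -0.07 (SE 0.14). RRAGC, RRAGD, FNIP1 and FNIP2, all known targets of these factors, differed among themselves in which group was highest: VEGF-C siRNA in RRAGC, scrambled siRNA by mean in RRAGD and FNIP1, and NRP-2 siRNA in FNIP2.

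The patterns of FNIP2 and SESN3, the members with the widest range of group means, were compared with all other genes over the 6 arrays by Pearson's r. Closest to FNIP2 were CRYZ (r = 0.993), RNPC3 (0.991), HNRNPA3, ERCC3 and THYN1 (0.989 each), and 67 of 11130 genes had r over 0.95. CRYZ, a quinone reductase, read 11.60 and 11.58 on the NRP-2 siRNA arrays, 10.50 and 10.58 on the VEGF-C siRNA arrays and 10.94 and 11.42 on the scrambled arrays, and so shared the spread of the scrambled arrays. Closest to SESN3 were KYAT1 (r = 0.997), JKAMP (0.996), ARHGEF6 (0.994), LSS (0.99) and RAB27A (0.989), and 85 genes had r over 0.95. With 6 arrays that share 3 groups, such values describe these arrays only.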

How the data were processed

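Total RNA (6 ug per array, per the labels' protocols) of 6 PC3 samples was measured on HG-U133 Plus 2.0 arrays. The deposited log2 values are the authors' own summaries of each probe set. The submitters' processing notes name Partek and GCRMA, without versions. GCRMA corrects background by probe sequence, so values near the floor are compressed and differences of dim genes understated. Of 54675 probe sets, 41091 had 1 gene in the platform annotation, 1801 several, 11721 none, and 62 were controls; 0 symbols changed through Entrez identifiers. Groups came from the labels. Detection calls were not used here. Precision is limited by having 2 arrays in a group.

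limma 3.58.1 in R 4.3.3 (lmFit, eBayes, two-sided) was fitted to all 6 arrays with 3 residual degrees of freedom, on 11131 genes (brightest probe set with a mean of at least log2 4) and on 19946 probe sets, with Benjamini-Hochberg adjustment over each table. The procedure was tested on simulated data, with changes larger than any difference of a member here. That test does not show how well differences of the members' size are found. Members and lists were chosen with earlier results of these data known. All 10 members were named whatever their values, with up to 4 genes of each list by smallest unadjusted p against scrambled siRNA and the 5 most similar genes of 2 members. The alternatives were no filter, the mean of all probe sets, equal medians, quantile normalization, an intensity trend, only the 2 groups compared, a replicate block, the G2 and mitosis mean as covariate and leaving out each array. Array numbers in the labels were checked for pairing through the deviations of same-numbered arrays from their group means. These correlated at 0.58 between NRP-2 and scrambled siRNA, 0.12 between NRP-2 and VEGF-C siRNA and 0.11 between VEGF-C and scrambled siRNA. Any pairing was thus read from the data, not from a stated design, and was used only in the alternative with the replicate block. Outside that alternative, every SE and p-value takes the arrays as unpaired.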

Additional observations from a re-analysis of the deposited data

How the results depend on the processing

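The 7 members separate between NRP-2 and VEGF-C siRNA (SESN1, SESN2, SESN3, FNIP2, RRAGC, RRAGD and LAMTOR4) kept their direction in that comparison under all 14 alternatives each. Most of these alternatives could not reverse it. No filter, the intensity trend, only the 2 groups, the block and leaving out a scrambled array return the same difference. As the 2 groups do not overlap in these genes, leaving out 1 of their arrays cannot change the sign. Differences near 0 changed sign: SESN2 and FNIP1 for NRP-2 against scrambled siRNA, RRAGD for VEGF-C against scrambled siRNA, and FLCN and FNIP1 for NRP-2 against VEGF-C siRNA. Of 378 differences recomputed under the alternatives, 29 moved by more than the residual SD of the gene. Many of the 378 could not move, since some alternatives return the main difference by construction. These are no filter, the intensity trend, only the 2 groups, the block and leaving out an array of the third group. With the replicate block, limma called 0 genes in each comparison, and 4 members had an unadjusted p under 0.05 with NRP-2 siRNA (17.2% of all genes), 3 with VEGF-C siRNA (17.9%; SESN1 was lost) and 7 between them (20.4%). Of the 18 member probe sets the block left 6, 7 and 10 with such a p (17.1%, 16.6% and 20.4% of all probe sets). Without it 7, 8 and 12 had one (13.8%, 13.9% and 18.6%). The block changed no adjusted call. With no filter on low values limma called 1 gene for VEGF-C against scrambled siRNA, 1 gene and 28 probe sets for NRP-2 against VEGF-C siRNA, 0 of them members; the cause was not tested. In the fit with the covariate of G2 and mitosis genes 0 members had an unadjusted p under 0.05 for VEGF-C against scrambled siRNA, and the share of all genes with one was 7.37% against 14.8% without the covariate, and the cause was not tested. Leaving out 1 array gave 2 to 4 such members there (5.98% to 17.9% of all genes), 3 to 5 for NRP-2 against scrambled siRNA (6.55% to 24.3%) and 6 to 7 between the targeting siRNAs (13.4% to 21.5%). Leaving out an array leaves 1 sample in its group, assumed to vary like the others. Signal close to the floor limits, among others, SESN3, the dimmer RRAGD probe set, DEPDC5, ITFG2 and CASTOR2.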
